A study of Homo sapiens with 6 samples.

Results

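The genes described here are FABP5 and its relatives among the proteins that carry fatty acids and retinoids inside cells, together with a pair of nuclear receptors. The 9 genes were the fatty acid binding protein genes FABP3, FABP4, FABP5, FABP6 and FABP7, the cellular retinoic acid binding protein genes CRABP1 and CRABP2, and the receptor genes RARB and PPARD. Every probe set annotated to any of these symbols was taken. A probe set is a group of short probes designed to read a given transcript or gene, although some match several. The probe sets taken were 17 of the 22277 on the array and covered 8 of the 9 genes. No probe set stood under the symbol CRABP1, so its level is not given here and only its promoter was searched. The genes were chosen with the difference between the lines already known, FABP5 holding the third largest difference towards U87MG among 11963 genes, so their differences are given as a description with no test.

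Transcript levels were measured in U87MG and T98G, both established human glioblastoma cell lines, on 6 Affymetrix arrays with 3 arrays per line. Both lines were grown in DMEM with foetal bovine serum, and no treatment is named for any array. Per the labels, U87MG withstands apoptosis by the proteasome inhibitor bortezomib and by the isopeptidase inhibitor G5 but dies by necrosis under G5, whereas T98G undergoes apoptosis under both agents and partly withstands the necrosis. Each group is a single cell line, whether the arrays came from separate cultures is not stated, and p-values therefore measure only the spread between these arrays. Levels are log2 values as the authors deposited them, so a step of 1 is a 2-fold difference, and differences are U87MG minus T98G.

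Fatty acid binding proteins and cellular retinoic acid binding proteins belong to a single family of small barrel-shaped proteins that hold a lipid in a central cavity and move it through the cytosol. Several of them also deliver their lipid to nuclear receptors, which then switch genes on or off. In a well-known model, CRABP2 carries retinoic acid to retinoic acid receptors such as RARB, and FABP5 carries retinoic acid or fatty acids to the receptor PPARD, so that the balance of both carriers directs the ligand. FABP7, the brain type, marks radial glia and is often described in glioma.

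Pearson's r over all probe sets was 0.991 to 0.997 within a line and 0.934 to 0.938 between the lines. U87MG replicate 3 stood apart in the poly-A spike-in controls, with a mean of 5.30 against 6.10 to 6.84 on the other 5 arrays. Without that array the differences given below were log2 7.26 for FABP5, 1.33 for CRABP2 and -1.48 for RARB. Of 10 glial and glioma markers, limma called 2 higher and 0 lower in U87MG, the stem cell filament gene NES at 5.85-fold and the glutamate transporter gene SLC1A3 at 2.05-fold, with 4 higher and 1 lower at an unadjusted p under 0.05. VIM and CD44 were abundant in both lines (VIM 14.85 ± 0.05 in U87MG and 14.59 ± 0.05 in T98G, SD, n = 3 each). The 8 probe sets of CD44 ran from log2 -1.45 to -0.23, and 1 of them was called lower in U87MG. GFAP was at 6.52 ± 0.04 in U87MG and 6.42 ± 0.04 in T98G, below the array medians. S100B, AQP4, OLIG2, SOX2 and SLC1A2 were also below the medians in both lines. Of the tissues for which these carriers are named, limma called 0 of 5 adipocyte, 0 of 5 keratinocyte, 0 of 4 striated muscle and 0 of 5 enterocyte markers, with 2, 1, 1 and 0 at an unadjusted p under 0.05. Over all genes, 13.6% were called, and an unadjusted p under 0.05 was reached by 22.5% with U87MG higher and 25.3% with U87MG lower. The mean over the keratinocyte markers ran from 6.46 to 6.69 on the U87MG arrays and from 6.45 to 6.49 on the T98G arrays. Among 4 leukocyte markers, CSF1R was called at 2.02-fold higher in U87MG. A call is a limma adjusted p under 0.05 (Benjamini-Hochberg over 11963 genes) with at least a 2-fold difference.

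FABP5, the epidermal type of the family, was abundant in U87MG and read at the bottom of the scale in T98G. Its only probe set had levels of 10.92, 11.04 and 10.88 on the U87MG arrays, against 3.68, 3.93 and 3.55 on the T98G arrays. The lines were 6.94 apart at their nearest arrays, and within a line the arrays differed by far less (SD 0.09 in U87MG and 0.19 in T98G, n = 3 each). Among all probe sets of the same array, FABP5 stood at percentiles of 87.6 to 88.8 in U87MG and of 2.02 to 5.36 in T98G. All 3 T98G values were under 4.03, the highest reading of the controls for a bacterial trp operon, to which no transcript in these samples should bind. The mean difference was log2 7.22, and with T98G values set to 4.03 it was log2 6.91, or at least 120-fold higher in U87MG. RefSeq lists 15 pseudogenes of FABP5, and the probe set identifier carries the suffix for probes that match several transcripts, so signal from near-identical copies cannot be told apart. In RNA of a whole culture, fewer cells with the transcript and less transcript per cell cannot be told apart either.

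**Figure D1:**
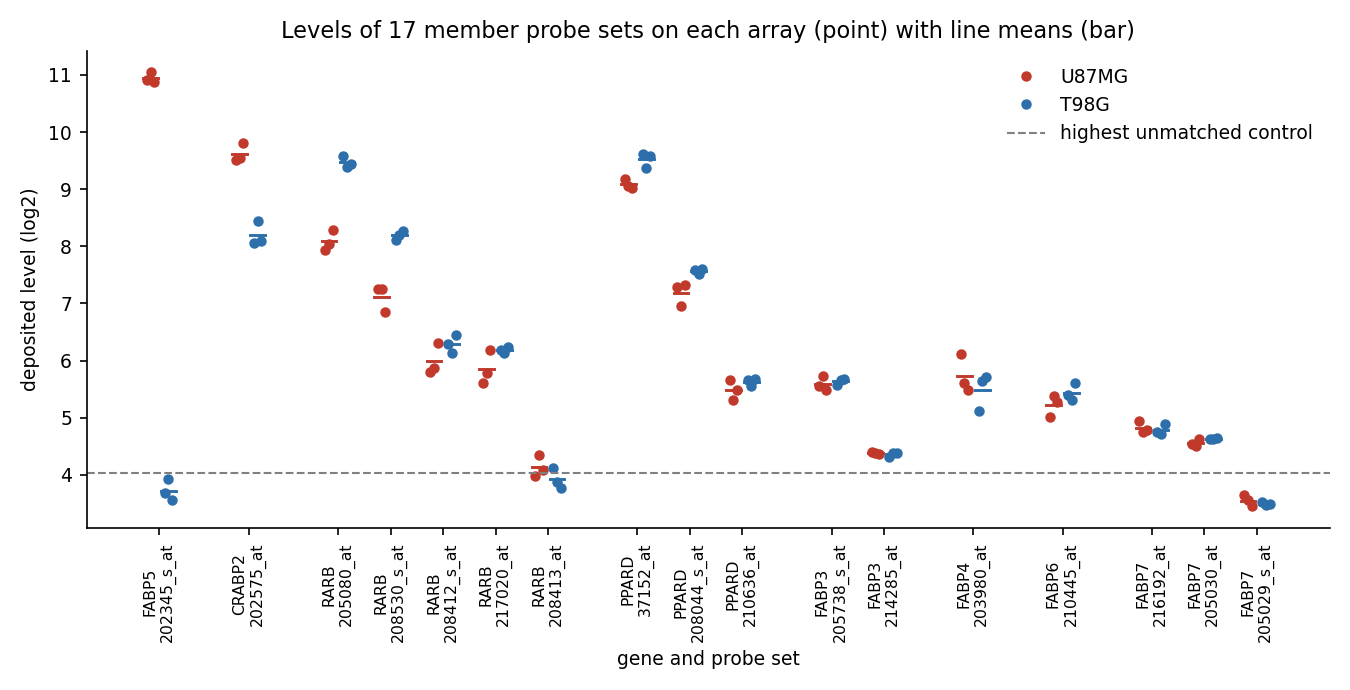
Deposited log2 level (vertical axis) of each of the 17 probe sets, grouped by gene (horizontal axis), with a point per array and a bar for the mean of each line, U87MG in red on the left and T98G in blue on the right of each pair. The dashed line is the highest control value of 4.03, and FABP5 averaged 10.95 in U87MG, far above it, against 3.72 in T98G.

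The other fatty acid binding proteins were dim in both lines and nearly level between them. FABP7 had 3 probe sets, with mean levels of 4.82, 4.56 and 3.55 in U87MG and 4.79, 4.64 and 3.50 in T98G. On the dimmest of them, all 6 arrays read under 4.03, so no fold is given, and the lines overlapped on each of the 3. FABP3, the heart type, had 5.55, 5.73 and 5.49 on the U87MG arrays, against 5.57, 5.65 and 5.68 on the T98G arrays, with a second probe set at 4.38 in U87MG and 4.36 in T98G.

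FABP4, the adipocyte type, had 6.11, 5.61 and 5.49 on the U87MG arrays, against 5.11, 5.64 and 5.71 on the T98G arrays. Its arrays overlapped, and its residual SD of 0.33 was the largest of the 17 probe sets. FABP6, the ileal bile acid carrier, had 5.02, 5.37 and 5.27 on the U87MG arrays, against 5.40, 5.31 and 5.60 on the T98G arrays. Over the 7 probe sets of FABP3, FABP4, FABP6 and FABP7, differences ran from log2 -0.22 to 0.25 and the arrays of the lines overlapped for each of the 7. Their line means lay between 3.50 and 5.74, under the array medians of 7.55 to 7.65, and at such levels the array does not show whether the transcripts are present.

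CRABP2, which carries retinoic acid to the nucleus, was higher in U87MG. Its probe set had levels of 9.51, 9.55 and 9.81 on the U87MG arrays, against 8.06, 8.45 and 8.09 on the T98G arrays. The arrays did not overlap, and the mean difference was log2 1.42, or 2.68-fold (SD 0.16 in U87MG and 0.22 in T98G, n = 3 each). CRABP2 was well above the control values in both lines, at percentiles of 72.3 to 77.8 of the array in U87MG and of 55.2 to 59.5 in T98G. Both carriers were thus higher in U87MG, but by unequal amounts, and the FABP5 to CRABP2 ratio was at least 44.9-fold higher in U87MG than in T98G with T98G values of FABP5 set to 4.03. That figure compares the lines only, since levels of different probe sets cannot be set against each other.

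RARB, the retinoic acid receptor beta, was lower in U87MG on its brighter probe sets, against the direction of both carriers. The brightest of its 5 probe sets had levels of 7.93, 8.05 and 8.29 on the U87MG arrays, against 9.58, 9.39 and 9.44 on the T98G arrays. The lowest T98G array was 1.10 above the highest U87MG array, and the mean difference was log2 -1.38, a 2.60-fold lower level in U87MG. The next probe set, designed to another transcript record, had 7.26, 7.25 and 6.85 on the U87MG arrays, against 8.11, 8.21 and 8.26 on the T98G arrays (log2 -1.08). The arrays of the lines did not overlap there either.

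The other 3 RARB probe sets were dimmer and overlapped between the lines. A pair of them had log2 -0.30 and -0.33, with U87MG replicate 3 (6.30 and 6.18) among the T98G arrays, while U87MG replicates 1 and 2 read 5.61 to 5.88. The dimmest had 3.98, 4.34 and 4.08 on the U87MG arrays, against 4.12, 3.88 and 3.77 on the T98G arrays, with 3 of these 6 values under 4.03. The probe set at log2 -0.30 and the dimmest (log2 0.21) were designed to the same transcript record as the brightest. The mean over all 5 probe sets gave log2 -0.57, so the size of the RARB difference depends on the probe set taken.

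RARB is the classic case of a receptor gene that its own ligand switches on, through a retinoic acid response element just ahead of its start. Retinoic acid receptors bind paired half-sites, and the pattern called DR5 is a direct repeat of the half-site with 5 bases between the copies. The 250 bases before each transcript start in the RefSeq promoter table (GRCh38.p14) were searched on both strands for the half-site AGGTCA with its variants (AGTTCA or GGGTCA, also GGTTCA), and for such repeats. The table holds 10 start sites for 7 of the 9 genes and none for FABP4 or FABP5, which were therefore not searched. The sequences of CRABP2 (chr1:156705785-156706034, minus strand) and of the RARB start with a DR5 (chr3:25428013-25428262, plus strand) are shown because these are the retinoic acid carrier and receptor that differed between the lines, and capitals mark the half-sites.
RARB: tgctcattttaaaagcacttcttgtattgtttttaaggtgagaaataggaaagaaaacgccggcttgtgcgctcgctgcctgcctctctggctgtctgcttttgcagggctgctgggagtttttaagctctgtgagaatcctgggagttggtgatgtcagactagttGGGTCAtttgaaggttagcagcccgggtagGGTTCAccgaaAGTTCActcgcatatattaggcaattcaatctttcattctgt
CRABP2: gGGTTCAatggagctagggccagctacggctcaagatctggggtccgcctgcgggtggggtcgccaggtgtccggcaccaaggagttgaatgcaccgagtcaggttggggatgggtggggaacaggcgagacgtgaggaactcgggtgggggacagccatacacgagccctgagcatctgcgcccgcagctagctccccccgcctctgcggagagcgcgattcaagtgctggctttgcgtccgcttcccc

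The RARB stretch held 3 half-sites, and the last pair of them, from base -53 to base -37 before the start, formed the DR5. A DR5 of these letters was present in 0.074% of the 35116 windows of the same length in the table. It was present in 1 of the 10 windows of the genes described here. RARB has 4 of those 10 windows, and its other windows held no DR5. The CRABP2 stretch held a single half-site, at base -249. At least 1 half-site was present in 33.8% of all windows and in 5 of the 10. No window of the 7 genes, which do not include FABP4 and FABP5, held a DR1. A DR1 is the same repeat with 1 base between the copies, which PPAR receptors bind, and 0.0968% of all windows held one. These matches describe letters in a short window and do not show binding in either line, and the brightest RARB probe set was lower in U87MG as given above.

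PPARD, a receptor for fatty acids and the partner of FABP5 in the model above, was slightly lower in U87MG. The brightest of its 3 probe sets had levels of 9.17, 9.05 and 9.03 on the U87MG arrays, against 9.62, 9.37 and 9.57 on the T98G arrays. The arrays did not overlap, with a gap of 0.20, and the mean difference was log2 -0.44, a 1.35-fold lower level. A second probe set had log2 -0.37 and also no overlap, while the dimmest had log2 -0.14 and overlapping arrays. PPARD thus differed little between the lines beside the wide difference of FABP5.

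Across the 17 probe sets, the arrays of the lines did not overlap for 6, with 2 higher and 4 lower in U87MG. Of the array's 22215 probe sets other than controls, 49.1% had no overlap, 23.0% with U87MG higher and 26.1% with U87MG lower. A difference of at least 2-fold with no overlap was found for 4 of the 17, those of FABP5, CRABP2 and 2 of RARB, against 12.2% of all probe sets. Since the genes were chosen with this contrast known, nothing is read from these counts. The median absolute difference was log2 0.25 over the 17 and 0.24 over all probe sets. The median residual SD was 0.15 over both, and the 17 ranged from 0.03 (FABP3) to 0.33 (FABP4).

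**Figure D2:**
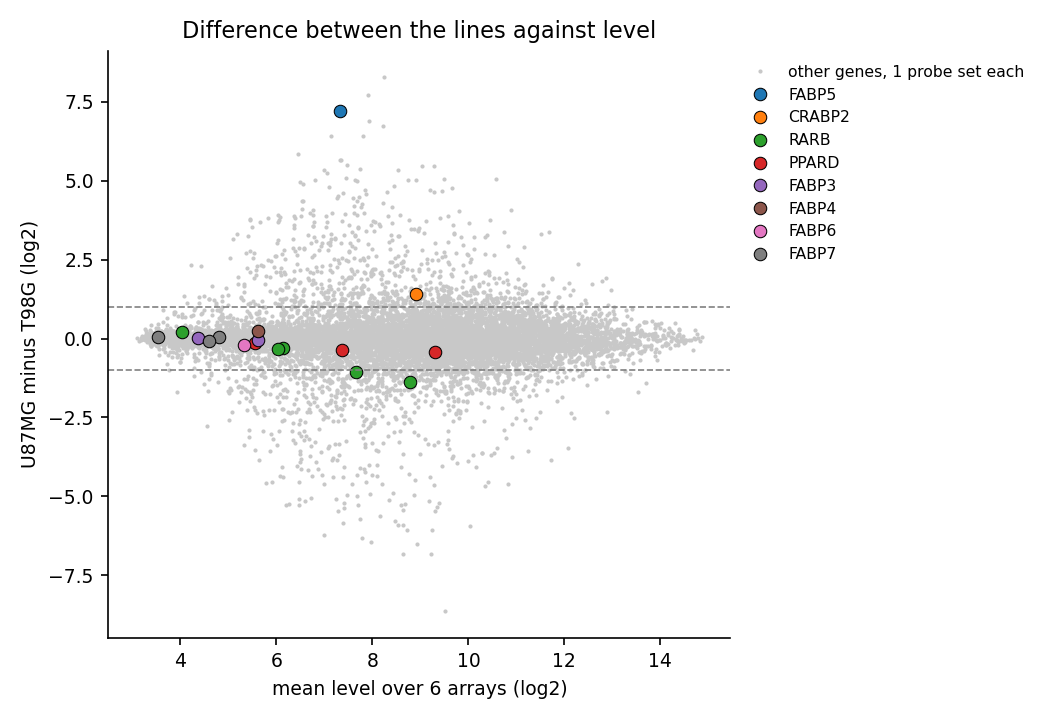
Difference between the lines, U87MG minus T98G (vertical axis, log2), against the mean level over 6 arrays (horizontal axis, log2), with a coloured point per probe set of the genes described and a grey point for each of the other genes. The dashed lines mark a 2-fold difference, and FABP5 at 7.22 lies far above CRABP2 at 1.42, while the lowest coloured point is RARB at -1.38.

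FABP5 lies near FABP4 on chromosome 8, and none of its measured neighbours differed by as much. Of the 11 other measured genes that lie between the pair or are the nearest 5 on either side in RefSeq order, limma called 1 higher and 1 lower in U87MG. Over all genes, 6.56% were called higher and 7.01% lower. PMP2, the myelin member of the same family that lies between FABP5 and FABP4, read under 4.03 in both lines (3.52 ± 0.06 in U87MG and 3.45 ± 0.07 in T98G). TPD52, a gene amplified in several cancers, was 2.17-fold higher (9.19 ± 0.15 in U87MG and 8.08 ± 0.20 in T98G), a call that 1 of its 4 probe sets gave (range log2 0.72 to 1.12). HEY1, a Notch-responsive repressor, was 3.88-fold lower (7.97 ± 0.23 in U87MG and 9.93 ± 0.32 in T98G). ZBTB10, the nearest measured gene before FABP5, had log2 -0.77, and IMPA1, the nearest after FABP4, had log2 -0.08.

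**Figure D3:**
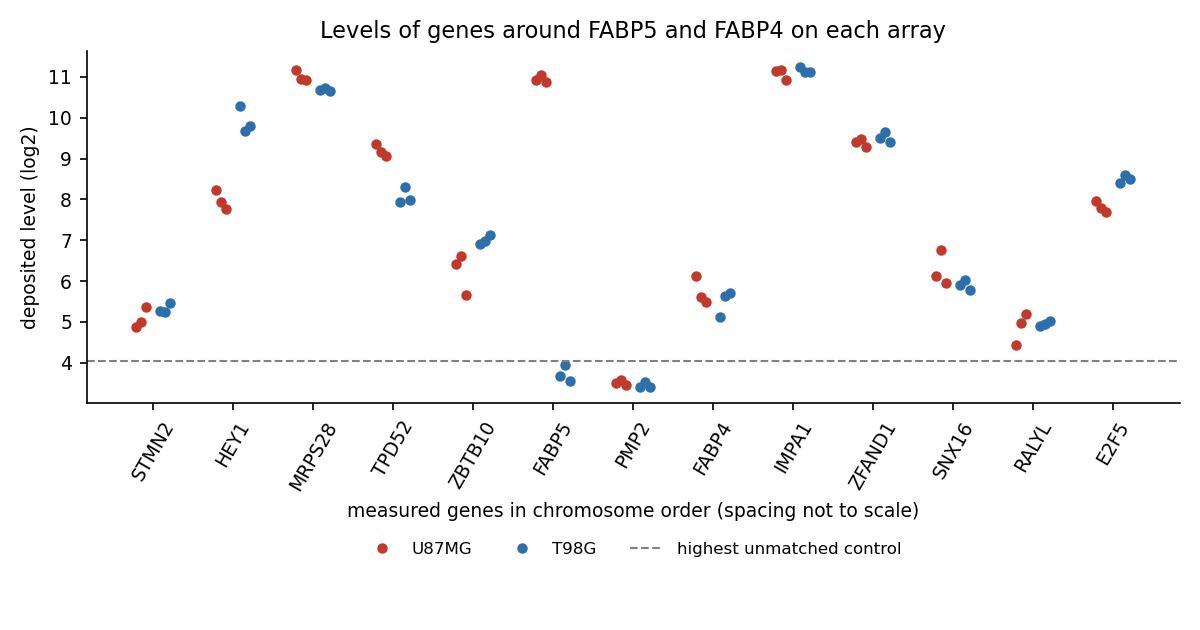
Deposited log2 level (vertical axis) of the measured genes around FABP5 and FABP4 in chromosome order (horizontal axis, spacing not to scale), with a point per array, U87MG in red and T98G in blue. FABP5 is the gene with the wide gap, at 10.88 to 11.04 in U87MG and 3.55 to 3.93 in T98G.

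The genes whose profile was most like that of FABP5 were found by the root mean square distance over the 6 arrays, after each gene was centred on its own mean. The nearest were NRIP3 at 0.297, NETO2 at 0.301, GREM1 at 0.305, CEP15 at 0.448 and SVIL at 0.449. Their differences ran from log2 6.41 (SVIL) to 7.71 (GREM1), although the 3 probe sets of SVIL ran from log2 0.24 to 6.41. With only 2 lines, such likeness reflects the size of the difference between them.

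The other genes of fatty acid and retinoid handling were taken as 7 lists of textbook genes, of which 101 of 132 genes were measured. The lists were chosen with earlier results of these data known, so nothing is read from the shares called in them. Of the 101, 8 were called higher and 14 lower in U87MG, or 21.8% called against 13.6% of all genes, and the median difference was log2 -0.01 both in the lists and over all genes. Among other intracellular lipid binding proteins, limma called none of the 3 measured, and none had an unadjusted p under 0.05. FABP1, the liver type, and PMP2 had log2 0.13 and 0.07.

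Genes that take up, make and break down retinoids held the widest differences of the lists, in opposite directions. Of 18 measured, 2 were called higher, 2 lower and 14 neither (median log2 0.02), or 22.2% called against 13.6% of all genes. ALDH1A3, a dehydrogenase that makes retinoic acid, was 10.4-fold higher in U87MG (13.36 ± 0.06 in U87MG and 9.98 ± 0.15 in T98G, SD, n = 3 each, limma adjusted p = 1.722e-08). ALDH1A1, another dehydrogenase of the same step, was at least 15.8-fold lower (4.08 ± 0.29 in U87MG and 8.14 ± 0.38 in T98G). STRA6, the membrane receptor that imports retinol, was 12.6-fold lower (7.17 ± 0.18 in U87MG and 10.82 ± 0.16 in T98G, limma adjusted p = 2.683e-08). DHRS3, which turns retinal back into retinol, was 2.84-fold higher, with U87MG arrays at 10.34, 9.58 and 9.15.

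Receptors and cofactors numbered 1 higher, 4 lower and 13 neither of 18 (median log2 -0.18), or 27.8% called against 13.6% of all genes. PPARG, the adipogenic relative of PPARD, was 4.11-fold higher in U87MG (7.21 ± 0.38 in U87MG and 5.17 ± 0.32 in T98G). Both means were under the array medians, and its only probe set carries the suffix for multiple matches. NR2F1, an orphan receptor induced by retinoic acid, was 12.8-fold lower (8.64 ± 0.40 in U87MG and 12.31 ± 0.26 in T98G). RXRA, the shared partner of retinoic acid and PPAR receptors, was 2.13-fold lower by its brighter probe set, whereas the other gave log2 -0.13. CREBBP, a coactivator, was 2.73-fold lower, with log2 -0.37 on its other probe set. The fourth lower gene, the coactivator NCOA2, fell outside the rule for named genes and is given after its value was seen (log2 -1.09, and log2 -0.98 without U87MG replicate 3), with 4 probe sets from log2 -1.14 to -0.30. On the mean of each gene's probe sets the list had 1 higher and 1 lower gene, since RXRA (log2 -0.61), CREBBP (log2 -0.91) and NCOA2 (log2 -0.79) were then not called. RARA and RARG, the sister receptors of RARB, had log2 -0.16 and 0.12 and were not called.

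Target genes of retinoic acid were called higher for 2, lower for 3 and neither for 10 of 15 (median log2 0.02). The share called was 33.3% against 13.6% of all genes. RARRES1, a retinoic acid responsive gene, was 10.6-fold lower in U87MG (5.38 ± 0.14 in U87MG and 8.79 ± 0.11 in T98G) on its brightest probe set. All 3 of its probe sets were called lower, at log2 -3.60 to -1.66. Both ends of that range came from probe sets without the suffix for multiple matches, and the brighter of these gave log2 -1.66. PLAAT4, a phospholipase-like gene also known as RARRES3, was 7.59-fold lower, and STRA6, which is on this list too, was the third. MEIS2, a homeobox gene, was 2.74-fold higher, and DHRS3 was the other higher gene.

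Target genes of PPAR receptors were called lower for 4, higher for 0 and neither for 23 of 27 (median log2 -0.10), with 8 lower and 6 higher at an unadjusted p under 0.05 by limma. The share called was 14.8% against 13.6% of all genes, and at the unadjusted p all genes gave 25.3% lower and 22.5% higher. PLIN2, which coats lipid droplets, was 12.2-fold lower in U87MG (5.12 ± 0.39 in U87MG and 8.73 ± 0.14 in T98G), although its other probe set had log2 -0.35. G0S2, an inhibitor of fat breakdown, was 11.9-fold lower (6.32 ± 0.14 in U87MG and 9.89 ± 0.19 in T98G). UCP2, a mitochondrial carrier, was 3.14-fold lower, and the peroxisomal enzyme gene EHHADH, given after its value was seen, had log2 -1.53. Both line means of EHHADH were under the array medians (4.43 in U87MG and 5.96 in T98G). Other well-known PPARD targets were not called, with PDK4 at log2 -0.13, while ANGPTL4 at 0.54 and CPT1A at 0.73 passed limma's adjusted p of 0.05 without reaching 2-fold on their brightest probe sets. The 4 probe sets of CPT1A ran from log2 0.12 to 1.21, and 1 of them was called higher.

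Fatty acid uptake, activation and storage genes were called higher for 2, lower for 3 and neither for 17 of 22 (median log2 -0.01). The share called was 22.7% against 13.6% of all genes. LIPE just missed 2-fold at log2 0.99996 (limma adjusted p = 0.001657), with log2 -0.02 on its other probe set. With quantile normalization repeated or arrays centred on their medians, 3 genes of the list were called higher. MGLL, which frees fatty acids from monoglycerides, was 2.24-fold higher in U87MG, and PLIN3, another droplet coat, was 2.09-fold higher but not past 2-fold without U87MG replicate 1 (log2 0.94). ACSL5, which activates fatty acids, was 4.22-fold lower (5.66 ± 0.16 in U87MG and 7.73 ± 0.21 in T98G), and DGAT1, which makes triglyceride, was 2.17-fold lower. PLIN2 was the third lower gene. CD36, a fatty acid transporter, was at 4.30 to 4.35 on the U87MG arrays and 4.40 to 4.44 on the T98G arrays and was not called.

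Transcription factors known to act on FABP7 were called higher for 2, lower for 0 and neither for 5 of 7 (median log2 0.30). The share called was 28.6% against 13.6% of all genes. At an unadjusted p under 0.05 by limma, 4 were higher and 0 lower. That level was reached by 22.5% of all genes with U87MG higher and 25.3% with U87MG lower. PAX6, a regulator of neural progenitors, was 7.16-fold higher in U87MG (9.42 ± 0.12 in U87MG and 6.58 ± 0.23 in T98G), while FABP7 itself was dim in both lines. NFIC was 2.15-fold higher and fell short of 2-fold without U87MG replicate 1 (log2 0.89) or T98G replicate 3 (log2 0.85).

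**Figure D4:**
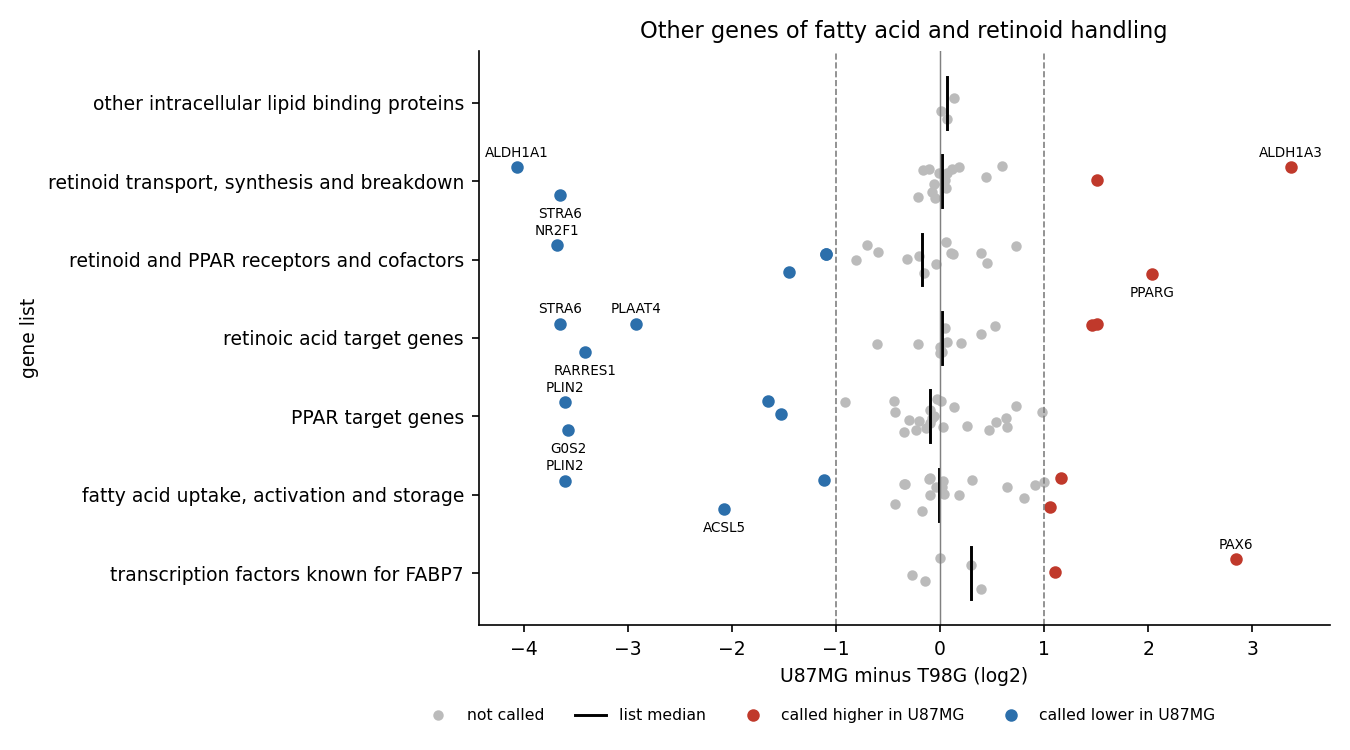
Difference between the lines, U87MG minus T98G (horizontal axis, log2), for each measured gene of the 7 lists (vertical axis), with red points called higher in U87MG, blue points called lower, grey points not called and a black bar at each list's median. The dashed lines mark a 2-fold difference, and the list medians stay between -0.18 and 0.30 while ALDH1A1 reaches -4.06 and ALDH1A3 3.37.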

How the data were processed

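RNA from U87MG and T98G cells (3 arrays each) was amplified once, labelled with biotin and read on Affymetrix arrays, as the labels' protocols state. The values the authors deposited are log2 levels of probe sets. The submitters' processing notes list RMA and limma, without versions. RMA equalises arrays and can compress differences of dim transcripts. Detection calls were not used here. With 6 arrays, their number limits what precision can be had.

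The platform table of 2016 gave gene names. Among 22277 probe sets there were 62 controls, 1043 with several genes and 19064 with 1, of which 19052 were updated by Entrez identifier to RefSeq symbols (GRCh38.p14). Each of 11963 genes was read from its brightest probe set, and the genes described at every probe set. The lines were compared with limma 3.58.1 in R 4.3.3 (two-sided, Benjamini-Hochberg over all genes, 4 residual degrees of freedom), tested on simulated data. The genes described and the lists were chosen with earlier results of these data known. Named genes were up to 3 called genes per direction of each list, the neighbours and the 5 genes most like FABP5. RARA, RARG, PDK4, ANGPTL4, CPT1A, CD36, LIPE, NCOA2 and EHHADH were named after their values were seen. Alternatives changed the probe set, the normalization, a filter on dim genes, the variance model, the call rule and the replicates.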

Additional observations from a re-analysis of the deposited data

How the results depend on the processing

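The FABP5 difference was log2 6.91 with values under 4.03 set to 4.03 and 7.24 with repeated quantile normalization or median centring, and ran from 7.14 to 7.33 with each array left out. It has no value without multiply matching probe sets, since its only probe set is one. That setting also left FABP1, STRA6, PPARG, RXRA, MEIS2, G0S2, MGLL, PLIN3, ACSL5, DGAT1 and PAX6 without a value. The 22 called list genes became 12 of 65 without multiply matching probe sets (fewer genes tested) and 13 by limma's treat at 2-fold, and ran from 22 to 23 with each array left out. Calls over all genes numbered 1624, against 873 by treat, and 1609 to 1653 with each array left out. Treat tests whether a difference exceeds 2-fold, and it ended the calls of DHRS3, RXRA, MEIS2, MGLL, PLIN3, DGAT1, NFIC, NCOA2 and EHHADH. The smallest of these differences was that of PLIN3 (log2 1.06) and the largest that of EHHADH (log2 -1.53). FABP1, not called, turned to log2 -0.026 without U87MG replicate 3, the other arrays giving up to 0.2657. The filter on dim genes (means over 7.63 in a line) left PPARG, EHHADH, FABP1 and PMP2 without a value. The mean of all probe sets moved PPARD to log2 -0.32. Same-numbered arrays of the lines deviated together at r = 0.15, 0.07 and 0.04, so the numbers were not taken as pairs. With the replicate number as a block, 1626 genes and 22 list genes were called and the FABP5 difference was 7.22. The lowest levels are limited by signal near the control values.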
